A study of Mus musculus with 8 samples.

Results

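The 37 genes described here mark endothelial cells, the cells that line blood vessels, or control angiogenesis, the growth of vessels. They were taken by symbol from a table of read counts for 56748 mouse genes, and all 37 were found. Polyadenylated RNA was sequenced from 8 whole hearts, 7 days after transverse aortic constriction, an operation that narrows the aortic arch and loads the left ventricle with pressure. The 4 CMS7KO hearts carried a Smad7 deletion meant for heart muscle cells alone, per their labels. Smad7 encodes an inhibitor of TGF-beta signalling. The Cre recombinase used to cut it was under the alpha myosin heavy chain promoter, which is specific to cardiomyocytes, so endothelial cells were not its target. The 4 ACRE hearts were controls that carried the same Cre transgene. All mice were males or females of 3 to 4 months, of a strain spelled C56BL in the labels, and all had the constriction, so no unloaded heart is among the 8. Replicates 1 and 2 of each group were labelled male, and replicates 3 and 4 female.

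Vessel growth is steered by secreted ligands and by receptors on endothelial cells. VEGF-A binds the receptors encoded by Kdr and Flt1, and VEGF-C binds the one encoded by Flt4. Angiopoietins bind the receptor encoded by Tek, and apelin binds the one encoded by Aplnr. In the heart the capillary bed lies close against muscle cells and supplies them with oxygen and fatty acids, and muscle cells make much of the VEGF.

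Libraries held 12920435 to 17199600 reads counted in genes. Levels below are in CPM, the reads of a gene per 1000000 reads of its library after TMM scaling for composition (factors 0.803 to 1.13). ACRE 2 and ACRE 4 stood apart from the other 6 libraries. On the first principal component of 16574 tested genes, with the 37 genes and the lists used here left out, they scored 62.9 and 75.9, and the others -47.8 to -11.6. Y-linked transcripts did not match the sex label of CMS7KO 3 and ACRE 3, which held 3528 and 3377 such reads and were labelled female, while CMS7KO 4 and ACRE 4 held 0. Smad7 stood at 30.9, 41.9, 38.9 and 43.1 CPM in CMS7KO 1 to 4 and at 34.6, 34.5, 32.7 and 23.9 CPM in ACRE 1 to 4 (log2 fold change 0.30, SE 0.18, edgeR adjusted p = 0.415). The targeted gene was thus not lower in the libraries labelled CMS7KO. The deleted part of Smad7 and the share of its reads from muscle cells were not measured here, and each direction below rests on the labels.

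The markers of endothelial cells were abundant in every library. Pecam1, which encodes the junction protein CD31, stood at 289, 407, 335 and 321 CPM in CMS7KO 1 to 4 and at 429, 207, 473 and 278 CPM in ACRE 1 to 4. Cdh5, which encodes VE-cadherin of endothelial junctions, stood at 403, 526, 523 and 437 CPM in CMS7KO 1 to 4 and at 519, 282, 641 and 363 CPM in ACRE 1 to 4. For both genes the 4 CMS7KO libraries lay inside the range of the ACRE libraries, of which 1 and 3 were high and 2 and 4 low. The 37 genes together took 0.699, 0.934, 0.840 and 0.703% of reads in CMS7KO 1 to 4 and 0.991, 0.380, 1.03 and 0.426% in ACRE 1 to 4. By the widest 95% exact binomial interval, that of ACRE 3, the share was 1.02 to 1.03%, so counting error is far smaller than the spread between libraries. In shares of reads from whole tissue, fewer endothelial cells, less RNA per endothelial cell and more RNA from other cells cannot be told apart.

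Compared per kilobase of gene length, the highest levels belonged to genes of capillaries and of fatty acid and water transport. Fabp4, a carrier of fatty acids, averaged 217 ± 31.9 CPM per kilobase in CMS7KO and 195 ± 88.8 in ACRE (SD, n = 4 each). Aqp1, a water channel of capillaries, averaged 211 ± 32.6 CPM per kilobase in CMS7KO and 245 ± 143 in ACRE. Cav1, the scaffold of caveolae, averaged 183 ± 26.2 CPM per kilobase in CMS7KO and 190 ± 80.9 in ACRE. Ly6c1, a surface protein of capillary endothelium, Vegfa and Cdh5 came next, at 176 ± 23.0, 168 ± 13.9 and 112 ± 14.8 CPM per kilobase in CMS7KO. The lowest levels were those of secreted regulators of sprouting. Angpt1 averaged 1.04 ± 0.05 CPM per kilobase in CMS7KO and 2.17 ± 1.59 in ACRE, Angpt2 averaged 1.69 ± 0.15 in CMS7KO and 1.60 ± 0.73 in ACRE, and Esm1, a marker of tip cells, 2.89 ± 1.49 in CMS7KO and 2.23 ± 1.11 in ACRE. These neighbours in the order of levels did not differ beyond their spread, other than Vegfa from Cdh5 and Angpt1 from Angpt2, both within CMS7KO. Mean levels thus spanned from 1.04 to 217 CPM per kilobase in CMS7KO.

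**Figure D1:**
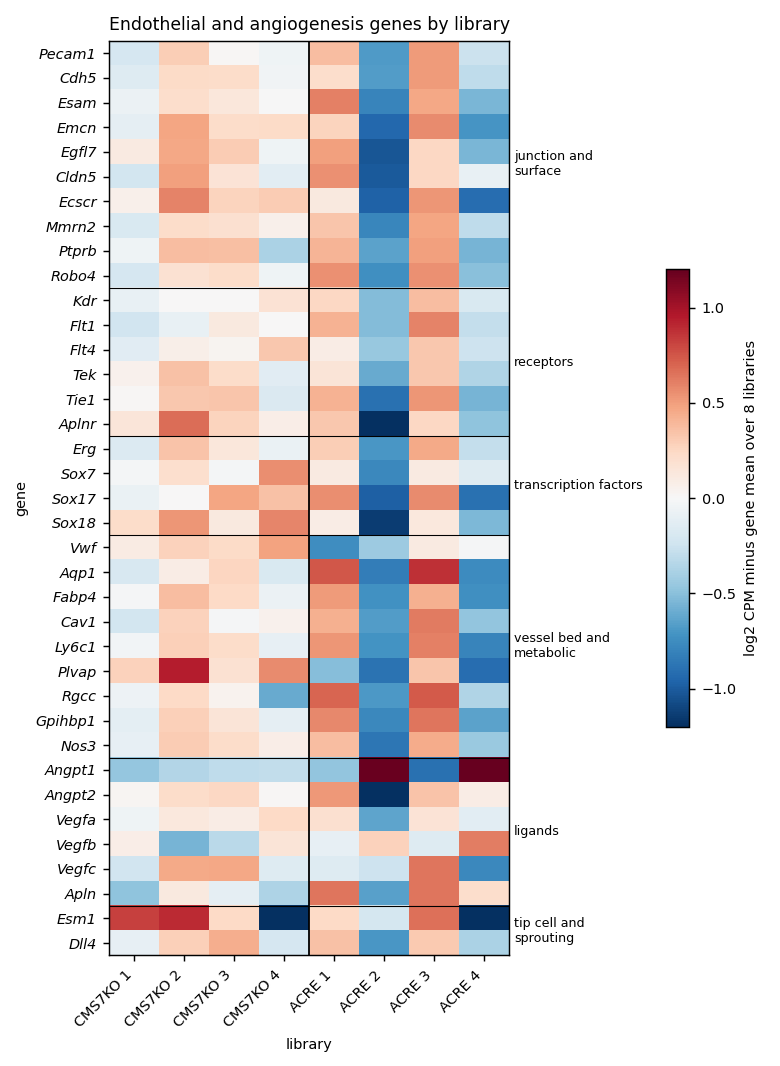
Log2 CPM of each of the 37 genes by library, as the deviation from the gene's own mean, with red above and blue below the mean, and genes grouped by role. Colours stop at the ends of the scale. ACRE 1 and 3 are red and ACRE 2 and 4 blue for most genes, and the 4 CMS7KO columns lie between them. Angpt1 and Vegfb show the opposite order in ACRE.

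The most regular feature of these genes was a split inside the control group. ACRE 1 and ACRE 3 both lay above ACRE 2 and ACRE 4 for 34 of the 37 genes, against 33.4% of all 16780 genes tested. Both lay below for 2 genes, Angpt1 and Vegfb, against 32.1% of all genes, and Vwf followed neither order. In other lists, ACRE 1 and 3 both lay above for 8 of 8 arterial, 6 of 8 tested erythroid and platelet and 0 of 8 fibroblast genes. As a median over the 37 genes, the log2 deviation from each gene's own mean was -0.08, 0.29, 0.22 and -0.04 in CMS7KO 1 to 4 and 0.35, -0.71, 0.46 and -0.45 in ACRE 1 to 4. The ratio of the highest to the lowest library had a median of 1.41 in CMS7KO (range 1.12 to 4.64) and of 2.45 in ACRE (range 1.71 to 5.60). It was larger in ACRE for 36 of the 37 genes, against 69.8% of all genes. For 26 genes all 4 CMS7KO libraries lay within the range of the ACRE libraries, against 24.5% of all genes. The lowest of the 8 libraries was ACRE 2 for 29 genes and ACRE 4 for 5.

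Markers of heart muscle cells had their highest sums in ACRE 2 and ACRE 4. The summed level of 12 cardiomyocyte genes was 57595, 37679, 49225 and 61227 CPM in CMS7KO 1 to 4 and 62984, 89353, 52393 and 112652 CPM in ACRE 1 to 4. Atp2a2, the calcium pump of the sarcoplasmic reticulum, stood at 3167, 1609, 2314 and 3325 CPM in CMS7KO 1 to 4, against 3299, 10228, 3045 and 15554 CPM in ACRE 1 to 4. ACRE 1 and 3 both lay below ACRE 2 and 4 for 7 of the 12 genes, against 32.1% of all genes, and above for 2. All 12 genes of that list had a log2 fold change below 0 (median -0.53), and 0 passed an edgeR adjusted p of 0.05. An unadjusted edgeR p under 0.05 was found for 2, against 15.3% of all genes, and DESeq2 called 1, against 2.88%. Without ACRE 2 and ACRE 4, 7 were below 0 and 5 above. Their part in the endothelial values was not tested.

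The 37 genes were then compared by genotype, which asks whether vessel genes differ in the loaded heart when muscle cells are meant to lack Smad7. With all 8 libraries none of them passed. The edgeR quasi-likelihood test, with the sex label as covariate, called 0 of 37 at an adjusted p of 0.05, against 0.0358% of all genes tested, with adjusted p of 0.271 to 0.989. DESeq2 also called 0, against 2.88% of all genes. An unadjusted edgeR p under 0.05 was found for 3 of the 37 genes, all with higher values in CMS7KO (Vwf, Plvap and Sox18), against 15.3% of all genes, or 7.12% higher and 8.2% lower in CMS7KO, and DESeq2 gave 4 such genes, these 3 and Angpt1, against 18.1%. For 27 genes the log2 fold change was above 0 and for 10 below, with a median of 0.09, while all genes had 49.4% above 0 and a median of -0.01. No gene had its 4 CMS7KO libraries all above or all below the 4 ACRE libraries, against 5.41% and 4.18% of all genes.

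The direction of that median rested on the low pair of controls. Without ACRE 2 and ACRE 4, left out after seeing the data, 6 of the 37 log2 fold changes were above 0 and 31 below, with a median of -0.30, while all genes had 51.4% above 0 and a median of 0.01. Leaving out 1 library gave medians from -0.11 (without ACRE 2) to 0.32 (without ACRE 1), below 0 also without ACRE 4 (-0.049). The edgeR test then called 0 of 37 genes, against 0.979% of all genes, with a smallest adjusted p of 0.0588 for Apln. An unadjusted p under 0.05 was found for 1 gene higher in CMS7KO, Vwf, and for 12 lower, against 6.55% and 5.69% of all genes. DESeq2 called 4 genes lower in CMS7KO in the same 6 libraries, Aqp1, Flt1, Apln and Rgcc, against 3.63% of all genes called in either direction and 1.5% called lower. Since the libraries left out were chosen by how they stood apart, and 2 controls remained, these values describe the split.

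**Figure D2:**
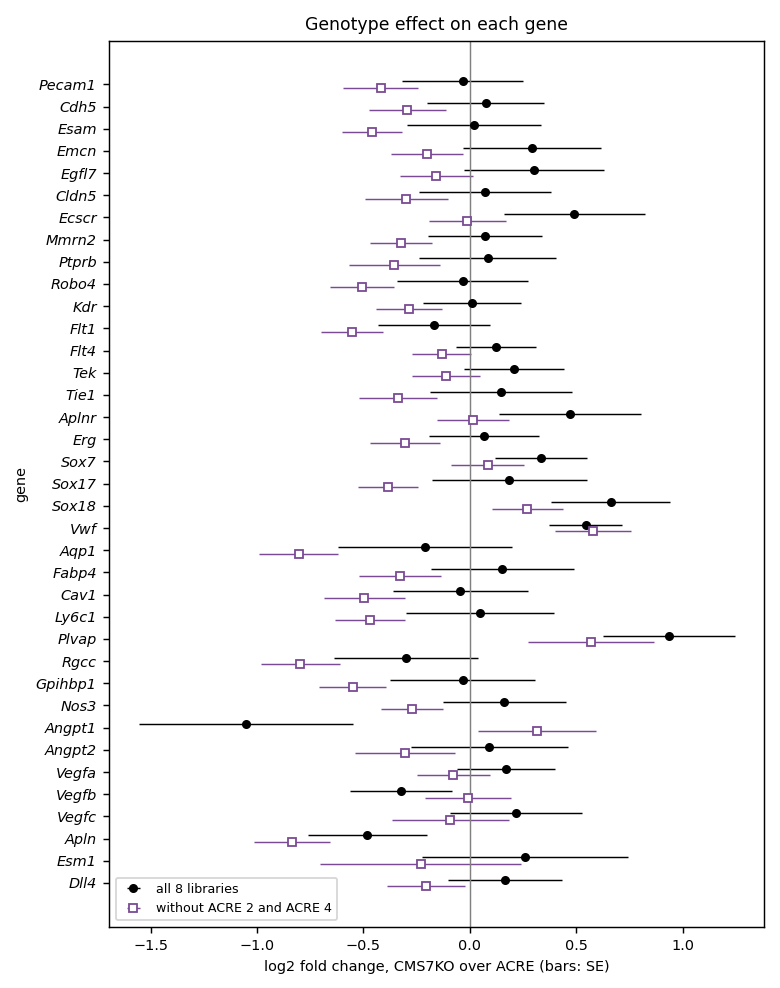
Log2 fold change of CMS7KO over ACRE for each of the 37 genes, with bars of 1 SE on each side, from edgeR with all 8 libraries (filled circles) and without ACRE 2 and ACRE 4 (open squares). Most circles lie near 0, most squares lie left of their circles, and the squares of Angpt1, Vegfb and Vwf lie right of theirs.

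Genes of junctions and of the endothelial surface showed the split in its plainest form. All 10 had ACRE 1 and 3 above ACRE 2 and 4, and for 9 of them the CMS7KO libraries lay within the ACRE range. Their log2 fold changes ran from -0.03 to 0.49, 8 above 0 and 2 below, and 0 of 10 passed the test. All 10 were below 0 without ACRE 2 and ACRE 4 (median -0.31). Robo4, a guidance receptor of endothelial cells, stood at 101, 132, 135 and 112 CPM in CMS7KO 1 to 4 and at 170, 69.7, 171 and 82.0 CPM in ACRE 1 to 4 (log2 fold change -0.03, SE 0.31, edgeR adjusted p = 0.969). Cldn5, a claudin of tight junctions, stood at 29.5, 48.5, 38.6 and 31.5 CPM in CMS7KO 1 to 4 and at 50.3, 17.1, 40.9 and 32.3 CPM in ACRE 1 to 4. Ecscr, a surface protein of endothelial cells, was the 1 gene of this group with a CMS7KO library outside the ACRE range. It stood at 34.3, 49.7, 39.5 and 40.4 CPM in CMS7KO 1 to 4 and at 35.6, 16.7, 47.4 and 17.4 CPM in ACRE 1 to 4 (0.49, SE 0.33, edgeR adjusted p = 0.470). CMS7KO 2 was above every ACRE library. The other members of this group are Esam and Emcn, adhesion protein and sialomucin, Egfl7, a secreted matrix factor, Mmrn2, a matrix glycoprotein, and Ptprb, the phosphatase VE-PTP. Their fold changes were 0.02, 0.29, 0.30, 0.07 and 0.08 on the log2 scale.

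No receptor of the angiogenic ligands passed the test between genotypes. Kdr, the main signalling receptor of VEGF-A, stood at 366, 391, 391 and 440 CPM in CMS7KO 1 to 4 and at 463, 271, 504 and 343 CPM in ACRE 1 to 4 (log2 fold change 0.01, 95% confidence interval -0.51 to 0.53, edgeR adjusted p = 0.989). Flt1, which binds VEGF-A with high affinity and weak signalling, stood at 252, 278, 322 and 297 CPM in CMS7KO 1 to 4 and at 395, 206, 447 and 243 CPM in ACRE 1 to 4 (-0.17, interval -0.76 to 0.42, edgeR adjusted p = 0.770). Both sets of CMS7KO values lay between the low and the high pair of ACRE. In the 6 libraries left without ACRE 2 and ACRE 4, Flt1 was at -0.56, with an adjusted p of 0.00375 by DESeq2 and 0.114 by edgeR. Flt4, the VEGF-C receptor of lymphatic and growing vessels, stood at 50.5, 58.3, 56.7 and 69.2 CPM in CMS7KO 1 to 4 and at 59.0, 40.4, 69.5 and 46.5 CPM in ACRE 1 to 4 (0.12, SE 0.19). Tek and Tie1, the angiopoietin receptor and its partner, had log2 fold changes of 0.21 (SE 0.24) and 0.14 (SE 0.33).

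Aplnr, the apelin receptor of endothelial cells, stood at 144, 206, 156 and 137 CPM in CMS7KO 1 to 4 and at 162, 54.2, 154 and 92.7 CPM in ACRE 1 to 4 (log2 fold change 0.47, SE 0.33, edgeR adjusted p = 0.492). The groups overlapped, and CMS7KO lay near the high pair of controls. Its log2 fold change was 0.01 without ACRE 2 and ACRE 4.

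Transcription factors of endothelial identity were led by Sox18. It stood at 113, 140, 105 and 145 CPM in CMS7KO 1 to 4 and at 103, 44.1, 106 and 66.9 CPM in ACRE 1 to 4, a log2 fold change of 0.66 (SE 0.28, unadjusted p = 0.0413, edgeR adjusted p = 0.317). The groups overlapped by CMS7KO 3 alone, which lay just under ACRE 3. The log2 fold change was 0.27 without ACRE 2 and ACRE 4. Sox7 and Sox17, relatives of Sox18, and Erg, an ETS factor that maintains endothelial identity, had log2 fold changes of 0.33, 0.19 and 0.07, with 0 of the 4 factors past the test. Sox17, which is enriched in arteries, averaged 47.4 ± 8.79 CPM in CMS7KO and 41.1 ± 22.7 CPM in ACRE. In ACRE its libraries formed pairs at 60.6 and 60.9 CPM (1 and 3) and 20.8 and 22.0 CPM (2 and 4).

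Among genes of particular vessel beds, Vwf and Plvap had higher values in CMS7KO. Vwf encodes von Willebrand factor, a clotting protein stored in endothelial cells of larger vessels and in platelets. It stood at 109, 123, 119 and 142 CPM in CMS7KO 1 to 4 and at 60.6, 75.4, 109 and 101 CPM in ACRE 1 to 4, a 1.46-fold difference (95% confidence interval 1.11 to 1.91, unadjusted p = 0.0109, edgeR adjusted p = 0.271). CMS7KO 1 and ACRE 3 lay at the same rounded level and the other 3 CMS7KO libraries lay above every ACRE library. Its log2 fold change was 0.54 with all libraries and 0.58 without ACRE 2 and ACRE 4. The 8 tested erythroid and platelet genes all had log2 fold changes above 0 (median 0.80), with 0 past the edgeR test and 0 past DESeq2. Of them 4 had an unadjusted edgeR p under 0.05, against 15.3% of all genes. The summed level of all 9 genes of that list, tested or not, was 795 to 1360 CPM in CMS7KO and 380 to 807 CPM in ACRE. Their part in Vwf was not tested.

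Plvap encodes the diaphragm protein of fenestrated and venous endothelium. It stood at 21.6, 34.2, 20.2 and 26.3 CPM in CMS7KO 1 to 4 and at 12.5, 9.66, 22.4 and 9.46 CPM in ACRE 1 to 4, a 1.91-fold difference (95% confidence interval 1.18 to 3.09, unadjusted p = 0.0134, edgeR adjusted p = 0.278). ACRE 3 lay above CMS7KO 1 and CMS7KO 3. Its log2 fold change was 0.93 with all libraries and 0.57 without ACRE 2 and ACRE 4 (unadjusted p = 0.0901). With no filter on low counts edgeR called it (adjusted p = 0.00296). That setting called 456 of 32514 genes higher and 912 lower, against 6 of 16780 called with the filter. In the table's coordinates, whose build is not named here, Plvap lies on the minus strand of chromosome 8 from 71950409 to 71964396 and overlaps Gtpbp3 on the other strand, which had 111% as many reads. With no strand setting given, reads of the shared stretch cannot be told apart. Gtpbp3 itself had a log2 fold change of 0.16 (SE 0.15).

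Capillary genes followed the split of the controls. Aqp1 stood at 484, 586, 661 and 486 CPM in CMS7KO 1 to 4, against 923, 310, 1011 and 326 CPM in ACRE 1 to 4 (log2 fold change -0.21, SE 0.41, edgeR adjusted p = 0.817). Every CMS7KO library lay between the high and the low pair of ACRE. Without that low pair its log2 fold change was -0.81 (SE 0.19), with an adjusted p of 0.000751 by DESeq2 and 0.0773 by edgeR. Rgcc, a cell cycle regulator of endothelial cells, stood at 48.3, 59.5, 52.1 and 33.2 CPM in CMS7KO 1 to 4 and at 82.0, 31.2, 83.8 and 39.3 CPM in ACRE 1 to 4 (-0.30, SE 0.34, edgeR adjusted p = 0.667). CMS7KO 4 lay between ACRE 2 and ACRE 4. Without that pair Rgcc was at -0.80, with an adjusted p of 0.0193 by DESeq2 and 0.0861 by edgeR. Gpihbp1, which carries lipoprotein lipase to the capillary lumen, and Nos3, the endothelial nitric oxide synthase, had log2 fold changes of -0.03 (SE 0.34) and 0.16 (SE 0.29).

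Fabp4 had the most reads of the 37 genes. It stood at 872, 1144, 1040 and 840 CPM in CMS7KO 1 to 4 and at 1257, 534, 1184 and 530 CPM in ACRE 1 to 4 (log2 fold change 0.15, SE 0.34, edgeR adjusted p = 0.843). Fat cells also express it, and the summed level of 6 adipocyte genes was 1.88 to 63.1 CPM in CMS7KO and 0.268 to 11.3 CPM in ACRE, with 5 of them (Adipoq, Plin1, Cidec, Retn and Lep) at 0 in at least 1 library. The highest adipocyte sum of each group was in CMS7KO 4 and in ACRE 4, where Fabp4 was lowest in its group. The part of fat cells in the Fabp4 values was not tested.

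Of the ligands, Angpt1 went against the endothelial genes. It encodes the angiopoietin that activates Tek and is made by cells around the vessels and by muscle cells. It stood at 5.00, 5.40, 5.56 and 5.60 CPM in CMS7KO 1 to 4 and at 4.97, 15.7, 3.71 and 20.8 CPM in ACRE 1 to 4, from 59 to 234 reads per library (log2 fold change -1.05, SE 0.50, edgeR adjusted p = 0.345). The CMS7KO libraries were nearly equal, and ACRE 2 and 4 alone were high. Without that pair the log2 fold change was 0.31. With no filter on low counts edgeR called Angpt1 lower (adjusted p = 0.00651), as it did 912 of 32514 genes. Vegfb, a relative of VEGF-A expressed in heart muscle, stood at 175, 113, 133 and 184 CPM in CMS7KO 1 to 4 and at 154, 201, 149 and 254 CPM in ACRE 1 to 4 (-0.32, SE 0.24, edgeR adjusted p = 0.510). Within each group the libraries had the same order by Vegfb as by the cardiomyocyte sum. The part of muscle cells in the Vegfb values was not tested.

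Vegfa was higher than its receptors in CPM per kilobase, and it stood at 644, 730, 710 and 788 CPM in CMS7KO 1 to 4 and at 762, 431, 749 and 613 CPM in ACRE 1 to 4 (log2 fold change 0.17, SE 0.23, edgeR adjusted p = 0.727). ACRE 2 and ACRE 4 lay below every CMS7KO library. Vegfc, the ligand of Flt4, averaged 13.8 ± 3.55 CPM in CMS7KO and 11.9 ± 5.09 CPM in ACRE (SD, n = 4 each). Angpt2, the angiopoietin that sprouting endothelial cells release, averaged 6.24 ± 0.54 CPM in CMS7KO and 5.89 ± 2.69 CPM in ACRE, where ACRE 2 had 31 reads. Angpt2 overlaps Mcph1 on the other strand, which had 80.3% as many reads, and Egfl7 overlaps Agpat2, with 12.7%. Of the tip cell and sprouting genes, Dll4, a Notch ligand, had a log2 fold change of 0.16 (SE 0.27). Esm1 had one of 0.26 (SE 0.48) and varied most in CMS7KO, at 8.19, 8.67, 5.50 and 1.87 CPM in CMS7KO 1 to 4 and 5.50, 4.02, 7.35 and 1.83 CPM in ACRE 1 to 4.

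Apln, the gene of the peptide ligand apelin, stood at 20.4, 30.8, 26.4 and 22.0 CPM in CMS7KO 1 to 4 and at 44.5, 18.1, 44.5 and 32.8 CPM in ACRE 1 to 4 (log2 fold change -0.48, SE 0.28, edgeR adjusted p = 0.416). Its CMS7KO libraries lay under 3 of the 4 ACRE libraries, and ACRE 2 was the lowest of all. Without ACRE 2 and ACRE 4 it was at -0.84 (SE 0.18), with an adjusted p of 0.00916 by DESeq2 and 0.0588 by edgeR.

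**Figure D3:**
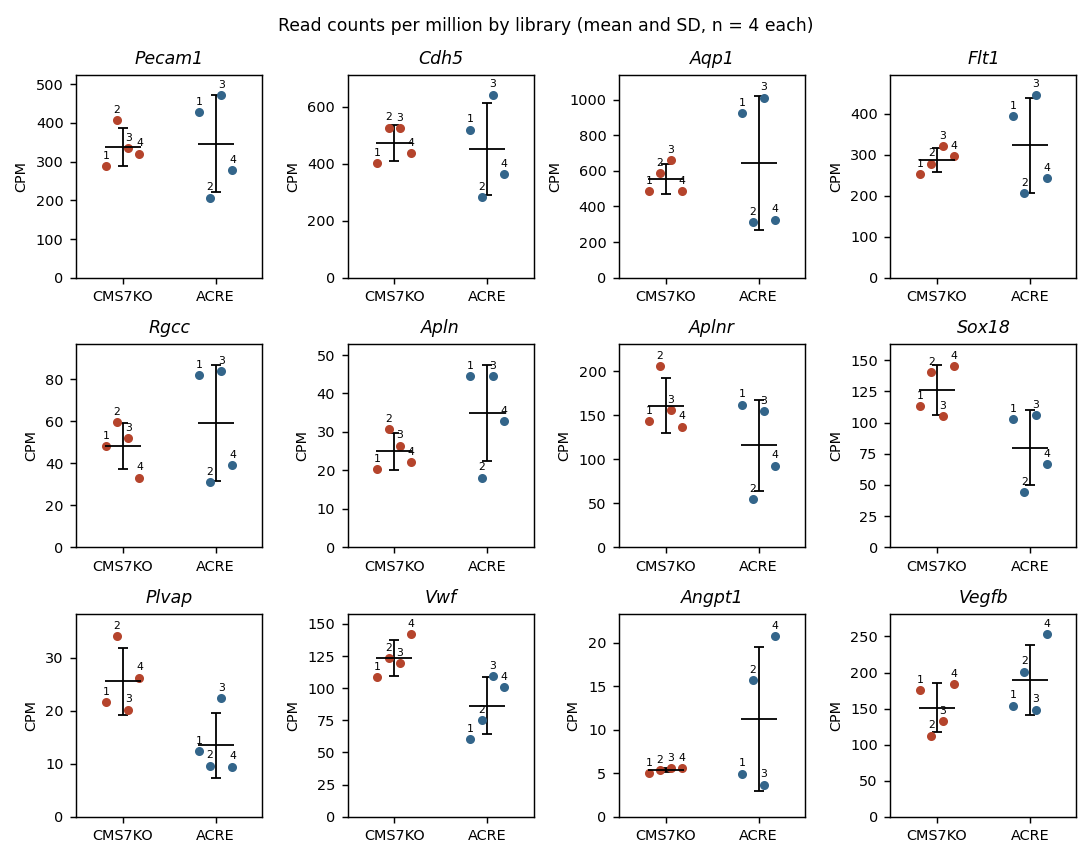
CPM of 12 of the 37 genes in each library, with numbers giving the replicate and lines the mean and SD (n = 4 each). The ACRE points of Aqp1 and Flt1 form a high and a low pair around the CMS7KO points, those of Rgcc form such pairs with CMS7KO 4 inside the low one, ACRE 2 and 4 are the high pair for Angpt1 and Vegfb, and no panel shows groups that are fully apart.

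Because most of the 37 genes varied together between libraries, each was also set against the mean log2 CPM of Pecam1 and Cdh5 in the same library. This scale was chosen after the values were seen, so it is given as a description, with no test. On it 5 of the other 35 genes had all 4 CMS7KO libraries above all 4 ACRE libraries, namely Plvap, Sox18, Ecscr, Aplnr and Emcn, against 3.5% of all genes. Apln alone had all CMS7KO libraries below, against 1.03% of all genes. On the same scale, all CMS7KO libraries lay above for 5 of 8 tested erythroid and platelet genes and 2 of 8 arterial genes. The count was 2 of 7 tested angiogenesis inhibitors, 2 of 26 other endothelial genes, 0 of 8 fibroblast genes and 0 of 12 cardiomyocyte genes. Relative to Pecam1 and Cdh5, Apln was at -4.06, -3.90, -3.98 and -4.08 on the log2 scale in CMS7KO 1 to 4 and at -3.40, -3.73, -3.63 and -3.27 in ACRE 1 to 4. Sox18 was at -1.59, -1.72, -1.99 and -1.36 in CMS7KO 1 to 4 and at -2.20, -2.45, -2.38 and -2.25 in ACRE 1 to 4. On this scale ACRE 2 and ACRE 4 no longer stood apart from ACRE 1 and ACRE 3 for Sox18, but for Emcn and Ecscr they still lay below. Emcn was at -2.43, -2.67, -2.35 and -2.83 in ACRE 1 to 4, and Ecscr at -3.72, -3.85, -3.53 and -4.18.

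The ligand and the receptor of the apelin pair lay on opposite sides of that scale. The log2 ratio of Apln to Aplnr was -2.81, -2.73, -2.56 and -2.63 in CMS7KO 1 to 4 and -1.86, -1.57, -1.79 and -1.49 in ACRE 1 to 4. The means were -2.68 ± 0.11 in CMS7KO and -1.68 ± 0.17 in ACRE (SD, n = 4 each), and the groups were apart by 0.70 on the log2 scale. Within ACRE, libraries 2 and 4 had higher ratios than libraries 1 and 3. A ratio of 2 genes in a library does not depend on how libraries are scaled. The pair was noticed among all 666 pairs of the 37 genes, of which 92 (13.8%) had ratios that did not overlap between the groups, so no test is given. The share among pairs of all genes tested was not computed, and pairs that share a gene are not independent, so the counts below are description only. Apln was the lower gene in CMS7KO in 23 of its 36 pairs and Rgcc in 13. Plvap was the higher one in 15 pairs, Ecscr in 14, Sox18 in 13 and Aplnr in 11. The widest gap was that of Sox18 and Apln, at 0.71.

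**Figure D4:**
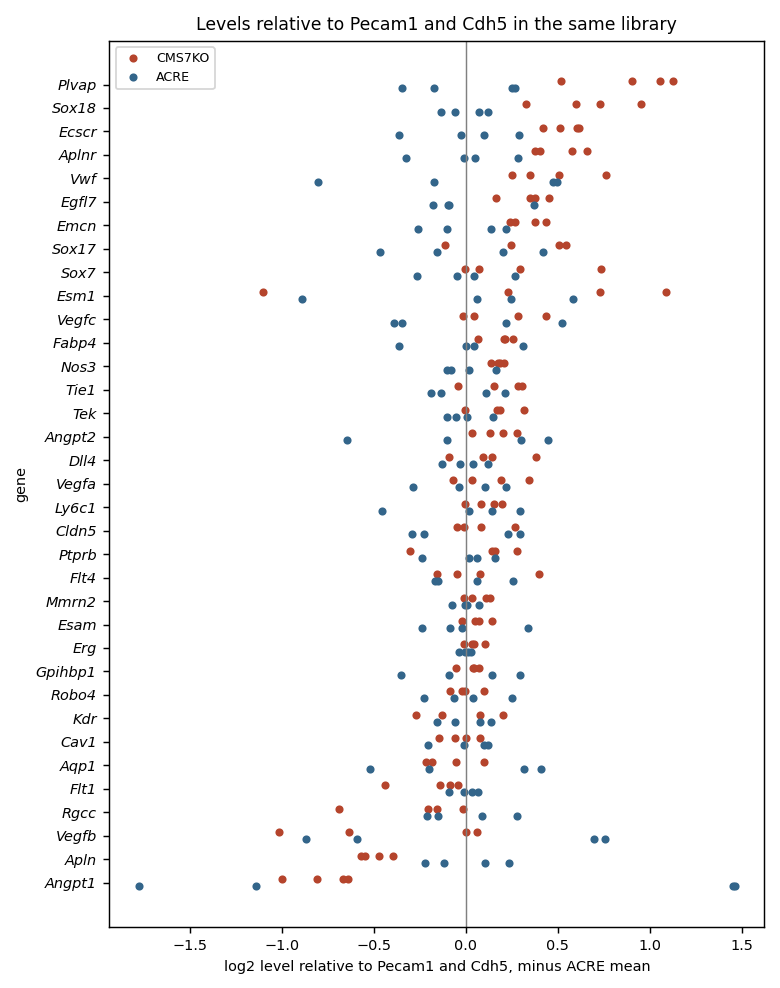
Log2 level of 35 genes relative to the mean of Pecam1 and Cdh5 in the same library, minus the ACRE mean, with CMS7KO in red and ACRE in blue, ordered by the difference of the group means. The red points of Plvap, Sox18, Ecscr, Aplnr and Emcn lie right of every blue point, those of Apln lie left, and the others overlap.

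For 4 other ratios the genotypes were compared by a two-sided exact permutation test over the 70 assignments of 8 libraries. Its smallest possible p is 0.0286, and a ratio that alone reached it could not pass after adjustment over the 4 ratios. That 0 of 4 passed therefore does not show that the ratios were equal. Before adjustment the exact p ran from 0.200 to 0.914, so no ratio reached the smallest possible value. Angpt2 over Angpt1, which sets the releasing angiopoietin against the stabilising one, was at 0.21, 0.29, 0.28 and 0.04 in CMS7KO 1 to 4 and at 0.71, -2.84, 0.94 and -1.75 in ACRE 1 to 4 (difference 0.94, exact p = 0.429, adjusted 0.571). ACRE 2 and 4 lay below and ACRE 1 and 3 above every CMS7KO library. Vegfa over Vegfb differed by 0.52 (exact p = 0.257, adjusted 0.514). Flt1 over Kdr differed by -0.15 (exact p = 0.200, adjusted 0.514) and Tek over Tie1 by -0.01 (exact p = 0.914, adjusted 0.914). These differences were within the spread between libraries.

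The sex label was associated with none of the 37 genes. The edgeR test of female over male called 0 of 37 genes and 0% of all genes (207 of all genes, or 1.23%, with an unadjusted p under 0.05). The test of whether the genotype effect differs between sex labels also called 0 of 37 and 0% of all genes (178, or 1.06%, unadjusted). Of the 37 genes, Vwf had an unadjusted p under 0.05 for the sex label (0.0440, log2 difference 0.40, adjusted p = 1 by edgeR). The label did not match Y-linked transcripts in 2 libraries, so these tests are of the label.

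The other genes of the same pathways gave few differences by genotype. None of the 6 pathway lists had a gene past the edgeR threshold. Of 16 other genes of VEGF and angiopoietin signalling, 8 had log2 fold changes above 0 and 8 below (median 0.01), and 6 were above 0 without ACRE 2 and ACRE 4 (median -0.19). Angptl4, a secreted inhibitor of lipoprotein lipase, averaged 8.75 ± 0.50 CPM in CMS7KO and 6.10 ± 3.36 CPM in ACRE (adjusted p = 0.532 by edgeR), and Shb, an adaptor protein of Kdr, 31.7 ± 8.79 CPM in CMS7KO and 27.6 ± 8.65 CPM in ACRE. Of 12 genes of Notch signalling in vessels, 10 were above 0 (median 0.16), and 4 were without ACRE 2 and ACRE 4 (median -0.13). Heyl, a Notch target, stood at 58.2, 82.8, 69.2 and 60.7 CPM in CMS7KO 1 to 4 and at 44.1, 46.9, 51.2 and 53.5 CPM in ACRE 1 to 4 (0.47, SE 0.16, edgeR adjusted p = 0.283). Its groups did not overlap, which held for 1 of the 12 genes, with CMS7KO above, against 5.41% of all genes. Hes1, another Notch target, averaged 40.6 ± 8.39 CPM in CMS7KO and 29.5 ± 2.25 CPM in ACRE (0.44, edgeR adjusted p = 0.290).

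A second set of 26 endothelial genes showed the same split. In it 16 were above 0 and 10 below (median 0.04). ACRE 1 and 3 lay above ACRE 2 and 4 for 22 of them, against 33.4% of all genes. Without ACRE 2 and ACRE 4, 24 were below 0 (median -0.35). S1pr1, the sphingosine-1-phosphate receptor of endothelial cells, singled out after its values were seen, was then called lower (log2 fold change -0.77, edgeR adjusted p = 0.0352), at 103, 115, 124 and 144 CPM in CMS7KO 1 to 4 and 172, 116, 243 and 134 CPM in ACRE 1 to 4. It was the 1 gene of the 26 called without that pair, which was left out after seeing the data, against 0.979% of all genes. Timp4, an inhibitor of matrix proteases, averaged 57.0 ± 20.7 CPM in CMS7KO and 113 ± 65.1 CPM in ACRE (-0.98, SE 0.42, edgeR adjusted p = 0.322). Lmo2, a transcription cofactor of blood and endothelial cells, averaged 37.7 ± 5.25 CPM in CMS7KO and 28.9 ± 4.01 CPM in ACRE (0.38, edgeR adjusted p = 0.278).

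Of 7 tested angiogenesis inhibitors 5 were above 0 (median 0.47), and 2 had groups that did not overlap, Serpinf1 with CMS7KO above, against 5.41% of all genes, and Adamts1 with CMS7KO below, against 4.18%. Adamts1, a matrix protease that binds VEGF-A, stood at 68.8, 68.4, 76.5 and 96.6 CPM in CMS7KO 1 to 4 and at 114, 118, 139 and 145 CPM in ACRE 1 to 4 (log2 fold change -0.74, SE 0.15, adjusted p = 0.162 by edgeR and 0.000188 by DESeq2). Unlike the endothelial genes, it was about as high in ACRE 2 and 4 as in ACRE 1 and 3, and its log2 fold change without ACRE 2 and 4 was -0.71 (edgeR adjusted p = 0.0395). Serpinf1, which encodes pigment epithelium-derived factor and is made by fibroblasts, averaged 122 ± 38.0 CPM in CMS7KO and 64.4 ± 12.6 CPM in ACRE (0.92, SE 0.23, adjusted p = 0.205 by edgeR and 0.0188 by DESeq2).

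Hypoxia response genes had no constant direction. Of 14 genes 9 were below 0 (median -0.30), and without ACRE 2 and ACRE 4, 5 were below 0 and 9 above (median 0.12). ACRE 1 and 3 lay below ACRE 2 and 4 for 9 of them and above for 4, against 32.1% and 33.4% of all genes. For 1 of them, Vldlr, all CMS7KO libraries lay below all ACRE libraries, against 4.18% of all genes. Vldlr, a lipoprotein receptor, stood at 156, 137, 118 and 105 CPM in CMS7KO 1 to 4 and at 167, 327, 180 and 450 CPM in ACRE 1 to 4 (log2 fold change -1.13, SE 0.34, adjusted p = 0.245 by edgeR and 0.0334 by DESeq2). Hk2, a hexokinase, averaged 112 ± 26.4 CPM in CMS7KO and 266 ± 190 CPM in ACRE (-1.24, SE 0.48, edgeR adjusted p = 0.307). Of 8 genes of endothelial activation 6 were above 0 (median 0.14), and 4 without ACRE 2 and ACRE 4 (median -0.04). For 1 of these 8, Sele, all CMS7KO libraries lay below all ACRE libraries, against the same 4.18%. Sele, the endothelial selectin, averaged 2.62 ± 0.42 CPM in CMS7KO and 4.13 ± 1.00 CPM in ACRE (-0.65, edgeR adjusted p = 0.316), and Cxcl1, a chemokine, 2.77 ± 1.38 CPM in CMS7KO and 6.14 ± 4.29 CPM in ACRE.

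Markers of endothelial subtypes and of other cell types were read as lists, and with all 8 libraries edgeR called 0 genes in each of them. The directions of the arterial and venous lists rested on ACRE 2 and ACRE 4, without which 3 of 8 arterial genes (median -0.03) and 1 of 5 venous genes (median -0.22) were above 0. With all libraries, of 8 arterial genes 6 were above 0 (median 0.37), among them Gja4, a connexin, at 30.6 ± 3.89 CPM in CMS7KO and 19.9 ± 6.84 CPM in ACRE, and Fbln5, an elastic fibre protein, at 69.4 ± 28.4 CPM in CMS7KO and 42.6 ± 7.59 CPM in ACRE. Of the 5 venous genes 4 were above 0 (median 0.05), with Tmem252 at 17.8 ± 1.84 CPM in CMS7KO and 43.0 ± 35.2 CPM in ACRE, high in ACRE 2 and 4, and Ephb4, a venous receptor, at 153 ± 16.7 CPM in CMS7KO and 137 ± 40.1 CPM in ACRE. Of 6 lymphatic genes 4 were above 0 (median 0.41), and all 6 were without ACRE 2 and ACRE 4 (median 0.49). Ccl21a, a chemokine of lymphatic vessels, averaged 25.5 ± 11.0 CPM in CMS7KO and 12.9 ± 4.80 CPM in ACRE, and Pdpn, podoplanin, 10.8 ± 1.91 CPM in CMS7KO and 7.13 ± 0.88 CPM in ACRE (both with an edgeR adjusted p of 0.289). All 3 tested endocardial genes were above 0 (median 0.55), with Nfatc1, a transcription factor of valve endocardium, at 39.5 ± 1.51 CPM in CMS7KO and 33.1 ± 5.60 CPM in ACRE, and Cytl1 at 8.48 ± 2.01 CPM in CMS7KO and 6.40 ± 3.91 CPM in ACRE.

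Cells around the vessels had medians near 0. Of 8 pericyte genes 5 were above 0 (median 0.04), with summed levels of 1525 to 1901 CPM in CMS7KO and 1595 to 1999 CPM in ACRE. Of 6 smooth muscle genes 4 were above 0 (median 0.04), at 586 to 798 CPM in CMS7KO and 651 to 751 CPM in ACRE. Without ACRE 2 and ACRE 4, 2 of the pericyte genes (median -0.08) and 2 of the smooth muscle genes (median -0.31) were above 0. The 8 fibroblast genes were all above 0 (median 0.76). They summed to 2783, 5450, 3414 and 2641 CPM in CMS7KO 1 to 4 and to 1861, 2306, 2347 and 1778 CPM in ACRE 1 to 4. DESeq2 called 3 of them, against 2.88% of all genes. Of 8 macrophage and monocyte genes 7 were above 0 (median 0.62), at 532 to 618 CPM in CMS7KO and 271 to 467 CPM in ACRE. DESeq2 called 2 of these, against the same share. Without ACRE 2 and ACRE 4, all 8 fibroblast genes (median 0.72) and 7 macrophage and monocyte genes (median 0.62) were above 0. DESeq2 then called 1 fibroblast gene and 6 macrophage and monocyte genes higher, against 3.63% of all genes called. In the same 6 libraries edgeR called 0 and 1 of them, against 0.979%. ACRE 1 and 3 both lay above ACRE 2 and 4 for 0 of 8 fibroblast and 3 of 8 macrophage and monocyte genes, against 33.4% of all genes. All 5 tested adipocyte genes and all 6 tested lymphocyte genes were above 0 (medians 2.41 and 0.65). So were 3 of 5 epicardial and mesothelial genes (median 0.04), and some of each list were at 0 in a library. The adipocyte genes summed to 1.88, 2.44, 2.27 and 63.1 CPM in CMS7KO 1 to 4. In ACRE 1 to 4 they summed to 0.585, 0.268, 1.13 and 11.3 CPM, so CMS7KO 4 stood far above every other library. The lymphocyte genes summed to 5.87 to 13.3 CPM in CMS7KO and 3.62 to 7.96 CPM in ACRE, and the epicardial genes to 15.6 to 18.2 CPM in CMS7KO and 10.3 to 19.3 CPM in ACRE. Their part in the endothelial values was not tested.

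**Figure D5:**
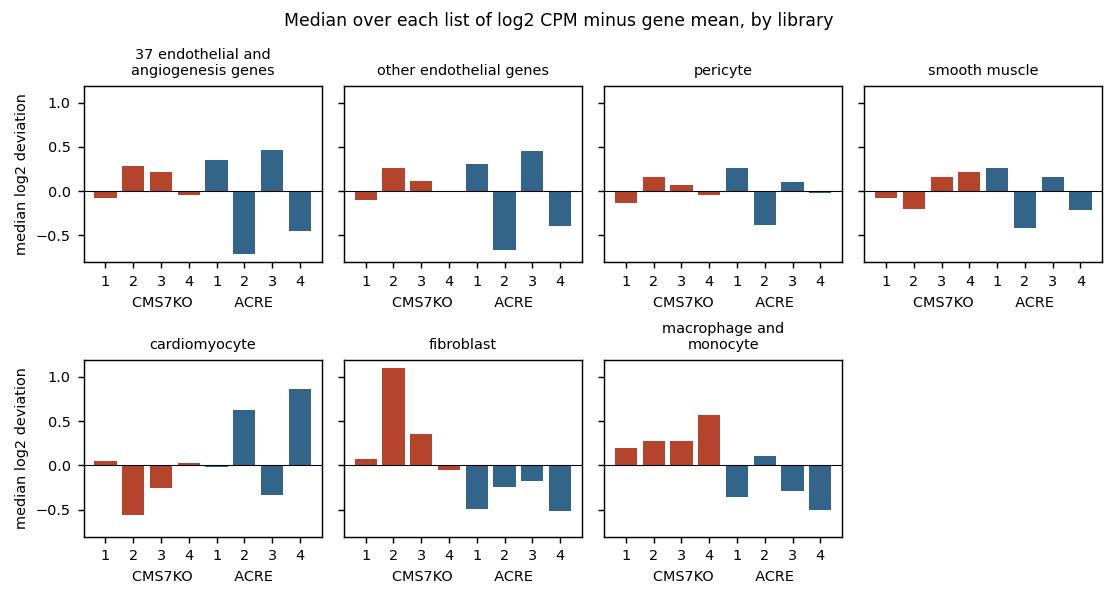
Median log2 deviation of each list's genes from their own means over the 8 libraries, with CMS7KO in red and ACRE in blue. The 37 genes and the other endothelial genes are low in ACRE 2 and 4, where cardiomyocyte genes are high, while fibroblast genes and macrophage genes are lower in most ACRE libraries.

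Sequence around annotated gene starts was read for the members that had a window. RefSeq windows on GRCm38.p6, from 250 bases before to 50 after a gene's start, were matched by symbol for 20 of the 37 genes, in 27 windows. Of the genes apart on the scale of Pecam1 and Cdh5, Apln and Emcn had one, and Plvap, Sox18, Ecscr and Aplnr were not matched. The motifs below were searched on both strands, and none is contained in another. The ETS motif CCGGAAGT was in 0 of 27 windows, against 3.89% of 32851 windows of all genes. The SOX motif AACAATA was in 2 windows (7.41%), 1 each of Emcn and Tek, against 3.08%. The hypoxia response core ACGTG was in 2 windows (7.41%), 1 of Vegfa and 1 of Cav1, against 19.6%. That of Vegfa was at the more downstream of its 2 starts, and the window of its upstream start held none. The motif TATAAA was in 4 windows (14.8%), those of Cav1, Erg, Flt1 and Ly6c1, against 13.6%. A match describes the letters of a window and shows no binding. Shown are Apln and Rgcc, the members most often the lower gene in CMS7KO among the pairs, whose windows hold none of the 4 motifs, and Emcn with the SOX motif, whose letters are in capitals. They are read 5′ to 3′ on the gene's strand, at chrX:48034804-48035103 (minus strand) for Apln, chr14:79301586-79301885 (minus) for Rgcc and chr3:137340828-137341127 (plus) for Emcn.
Apln: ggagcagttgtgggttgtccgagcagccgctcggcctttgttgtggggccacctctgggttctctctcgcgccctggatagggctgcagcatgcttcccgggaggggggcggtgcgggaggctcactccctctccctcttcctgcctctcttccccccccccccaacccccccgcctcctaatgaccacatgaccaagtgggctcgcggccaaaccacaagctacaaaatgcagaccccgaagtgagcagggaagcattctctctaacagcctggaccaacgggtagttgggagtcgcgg
Rgcc: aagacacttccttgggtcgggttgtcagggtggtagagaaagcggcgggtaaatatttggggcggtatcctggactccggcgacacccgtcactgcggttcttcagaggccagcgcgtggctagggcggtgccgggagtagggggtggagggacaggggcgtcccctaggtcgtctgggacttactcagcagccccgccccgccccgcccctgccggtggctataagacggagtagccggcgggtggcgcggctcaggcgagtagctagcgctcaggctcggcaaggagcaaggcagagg
Emcn: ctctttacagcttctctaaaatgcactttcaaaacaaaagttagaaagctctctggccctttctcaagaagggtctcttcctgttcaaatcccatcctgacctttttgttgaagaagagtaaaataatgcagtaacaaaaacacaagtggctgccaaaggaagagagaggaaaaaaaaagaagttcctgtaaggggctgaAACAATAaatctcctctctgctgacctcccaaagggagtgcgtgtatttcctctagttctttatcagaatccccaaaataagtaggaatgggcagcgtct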

How the data were processed

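Raw counts of reads per gene, as deposited by the authors, come in a single table with a column for each heart. Tools named in the submitters' processing notes, with no roles, are TopHat2 2.0, HTSeq 0.6.1, Cufflinks 2.1.1 and CASAVA, and builds are mm10 and GRCm38.p6. For the annotation and strand setting, the sources used here give nothing. The start of 0 of the 37 genes matched mouse GENCODE release M21, so coordinates are printed as the table gives them. Apln shows the difference from GRCm38.p6. The table puts it at 47114023 to 47123730 on chromosome X, and its GRCm38.p6 window lies at 48034804 to 48035103. Labels call the 4 samples of a group independent, without naming litters or batches. Every pair of libraries differed by more than sampling noise (smallest chi-square per degree of freedom 17.5).

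Tests were run with edgeR 4.0.16 in R 4.3.3 (robust quasi-likelihood F test, TMM scaling, filterByExpr on genotype and sex label, sex label as covariate, 5 residual degrees of freedom, common biological coefficient of variation 30.3%). Of 56748 genes, 32514 had a read and 16780 were tested, all 37 included. Benjamini-Hochberg adjustment covered all genes tested, at 0.05. DESeq2 1.42.0 and limma 3.58.1 gave alternatives, and log2 levels used a prior count of 2. Intervals cover counting error only for shares of reads, since copies of 1 molecule made by PCR were not marked. The scripts were tested on simulated data.

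The 37 genes, the lists and the naming rule were chosen with earlier results of these data known. The rule named all 37 genes, Smad7, each listed gene past the threshold and otherwise up to 2 genes per list with the smallest p. Genes that it named in lists of other cell types are given as list counts only, apart from Atp2a2.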

Additional observations from a re-analysis of the deposited data

How the results depend on the processing

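The edgeR test called 0 of the 37 genes with DESeq2 size factors, library totals, no sex covariate, any 1 library left out or a replicate block, and limma voom and DESeq2 also called 0. With no filter on low counts it called 1 higher (Plvap) and 1 lower (Angpt1), and DESeq2 without ACRE 2 and 4 called 4 lower. Among all genes 3 were called higher and 3 lower. DESeq2 gave 278 and 206, no filter 456 and 912, no sex covariate 3 and 5, and the replicate block 1 and 2. Dropping ACRE 2 and 4 gave 86 and 89 (DESeq2 351 and 248), and dropping ACRE 3 and CMS7KO 3 gave 0 and 1, both chosen after seeing the data. Leaving out 1 library gave 0 to 10 higher and 0 to 7 lower (0 and 0 without CMS7KO 1, 2 or 3, 2 and 5 without CMS7KO 4, 10 and 7 without ACRE 2, 1 and 3 without ACRE 3, 7 and 4 without ACRE 4). The cause of these changes was not tested. Deviations of same-numbered libraries correlated at -0.17, -0.19, 0.12 and 0.20, within the -0.23 to 0.27 of libraries with unlike numbers. Since labels name no litters or batches, these values cannot decide whether the numbers pair hearts.

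With library totals the log2 fold changes that turned sign were Pecam1 0.074, Robo4 0.060, Cav1 0.050 and Gpihbp1 0.053. Library totals put the median log2 fold change of all genes tested at 0.14, above all 4 of these values. With limma voom they were Pecam1 0.036, Robo4 0.086, Aqp1 0.0096, Cav1 0.057 and Gpihbp1 0.12. With the replicate block they were Pecam1 0.023, Robo4 0.071, Cav1 0.043 and Gpihbp1 0.098. Without ACRE 3 and CMS7KO 3 they were Pecam1 0.15, Robo4 0.12, Aqp1 0.051, Cav1 0.22 and Gpihbp1 0.20. Without ACRE 2 and ACRE 4 they were, with 3 log2 ratios at the end, Cdh5 -0.30, Esam -0.46, Emcn -0.20, Egfl7 -0.16, Cldn5 -0.30, Ecscr -0.013, Mmrn2 -0.33, Ptprb -0.36, Kdr -0.29, Flt4 -0.13, Tek -0.11, Tie1 -0.34, Erg -0.30, Sox17 -0.38, Fabp4 -0.33, Ly6c1 -0.47, Nos3 -0.27, Angpt1 0.31, Angpt2 -0.30, Vegfa -0.078, Vegfc -0.092, Esm1 -0.23, Dll4 -0.21, Hk2 0.0093, Tmem252 0.45, Ephb4 -0.15, Angpt2 over Angpt1 -0.62, Vegfa over Vegfb -0.046 and Tek over Tie1 0.23. Leaving out 1 library gave both signs for Pecam1 -0.24 to 0.17, Robo4 -0.25 to 0.26, Flt1 -0.34 to 0.043, Aqp1 -0.47 to 0.18, Cav1 -0.25 to 0.23, Gpihbp1 -0.27 to 0.28, Cdh5 -0.11 to 0.28, Esam -0.20 to 0.35, Cldn5 -0.19 to 0.40, Mmrn2 -0.13 to 0.30, Ptprb -0.12 to 0.35, Kdr -0.14 to 0.17, Tie1 -0.093 to 0.42, Erg -0.14 to 0.26, Sox17 -0.091 to 0.60, Fabp4 -0.057 to 0.43, Ly6c1 -0.18 to 0.39, Nos3 -0.056 to 0.43, Angpt2 -0.22 to 0.50, Dll4 -0.021 to 0.40, Ephb4 -0.011 to 0.38 and Tek over Tie1 -0.096 to 0.087.

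Depth limits Angpt1, Angpt2, Esm1 and Vegfc, with 19 to 324 reads per library.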
